A study of Sus scrofa with 4 samples.

Results

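The cartilage collagens are the 7 genes COL2A1, COL9A1, COL9A2, COL9A3, COL10A1, COL11A1 and COL11A2, which encode chains of collagen types II, IX, X and XI. They were taken by gene symbol, and all 7 were found among the 20648 genes counted. They were measured by droplet single-cell RNA sequencing of regenerated bone from 8-month-old Bama mini-pigs, small domestic pigs kept for research. The tissue had been digested with type I collagenase and depleted of red blood cells by lysis. Tissue of a peptide 1797 group (2 libraries) was set against that of a control peptide group (2 libraries), as the sample titles name them. More control samples named in the study's design were not analysed here. Nothing in the labels tells if each library stands for its own animal, how a peptide was given or how long healing lasted, so p-values measure only the spread between libraries, which may be technical.

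Collagen type II, a homotrimer of COL2A1 chains, forms the main fibrils of cartilage. Type XI, which joins COL11A1, COL11A2 and a COL2A1-derived chain, sits in the core of these fibrils and limits their width, and type IX, made from COL9A1, COL9A2 and COL9A3, lies on their surface and links them to other matrix. Type X, made from COL10A1, is laid down by hypertrophic chondrocytes, the swollen cells of cartilage that is about to be replaced by bone, as happens in growth plates and in the cartilage callus of a healing fracture. Bone-forming cells build type I collagen instead, and type XI chains can join type V in fibrils outside cartilage.

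On Sscrofa11.1, per a RefSeq gene table, COL2A1 lies on chromosome 5 from 78350131 to 78380893 and COL10A1 on chromosome 1 from 81766829 to 81773818. COL9A1 is also on chromosome 1 (50403355 to 50498356), COL9A2 on chromosome 6 (96065282 to 96081547) and COL9A3 on chromosome 17 (62074108 to 62094228). COL11A1 lies on chromosome 4 (115638381 to 115841679) and COL11A2 on chromosome 7 (25204496 to 25234880). The whole of COL10A1 falls inside the span of NT5DC1, and COL9A3 shares 323 bases with TCFL5. Whether reads of these pairs were kept apart by strand is not given in the sources used here. All levels below are in CPM, the UMIs (counted molecules) of a gene per 1000000 UMIs of the cells named. Such 3′ counts tally transcript ends and were not divided by transcript length.

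The libraries held 87844389 to 98758412 UMIs each, and 49137 cells passed the filters, 12218 and 12688 with peptide 1797 and 12765 and 11466 with control peptide. Pairs of libraries shared 42 to 63 cell barcodes (0.35% to 0.45% of the smaller library). Clustering without the 7 collagens gave 47 clusters. Of these, 23 were placed in 14 classes by marker genes, and the other 24, with 33.0% of cells, stayed unnamed. A class name stands for cells with the markers of that type. Library 1 of the 1797 group stood apart, with 1962 barcodes failing the cell filter against 278 to 581 in the others and a median mitochondrial share of 4.18% against 2.82% to 2.97%. Counts of the libraries of 1 group differed beyond sampling noise, with chi-square values divided by degrees of freedom of 346 (peptide 1797) and 356 (control peptide), so neither pair was treated as 1 library deposited again.

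Cartilage collagen transcripts were concentrated in 1 small cluster. The cluster of 58 cells was called chondrocyte-like from markers that include none of the collagens. Its leading genes were HAPLN1 and ACAN, the link protein and core protein of cartilage proteoglycan, CNMD, which encodes the cartilage glycoprotein chondromodulin, and COMP, a matrix protein that binds collagen. ACAN was at 3482 and 3227 CPM in the 1797 cells of this class and at 6092 and 3689 in its control cells, against 1.68 in pooled blood cells. MIA, another marker, was also higher in the control cells (424 and 502 against 1344 and 667). CNMD was at 4409 and 2857 against 44.8 and 2211, and COMP at 2327 and 2875 against 537 and 1122. MATN1, CYTL1 and EPYC, also markers, had 0 UMIs in the control cells of both libraries. In control library 1, CNMD had 1 UMI, and 1 of the 2 cells had 0 ACAN UMIs. The class held 37 and 14 cells from peptide 1797 libraries and 2 and 5 cells from control peptide libraries. Each of the 7 collagens had its highest mean level here, and in every one the lowest of the 4 libraries lay above the highest library of any other class. The mean of the 4 libraries was 40723 CPM for COL2A1 and 13522 for COL11A1. Means for COL9A1, COL9A3, COL9A2 and COL11A2 were 3824, 3002, 2614 and 2245, and that of COL10A1 was 441.

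**Figure D1:**
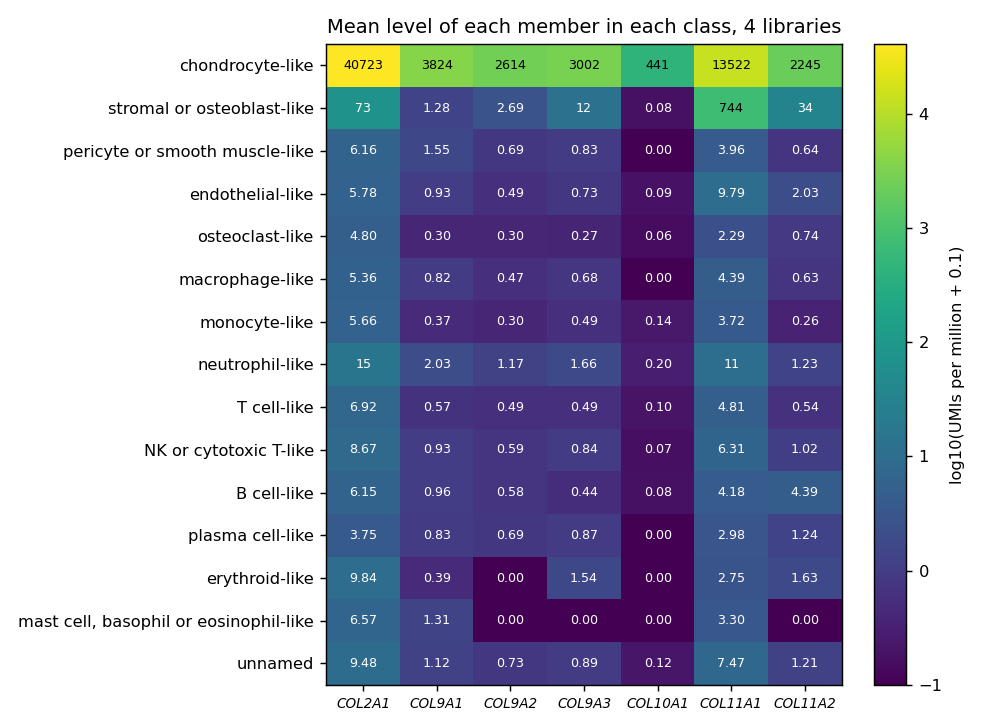
Level of each of the 7 genes (columns) in each class (rows), printed as CPM averaged over the 4 libraries and coloured on the scale log10(CPM + 0.1). The chondrocyte-like row stands highest in every column, from 441 for COL10A1 to 40723 for COL2A1, and the next row with high values is the stromal or osteoblast-like class, with 744 for COL11A1.

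The stromal or osteoblast-like class came second for COL2A1, COL9A2, COL9A3, COL11A1 and COL11A2. Its mean levels were 73.3, 2.69, 12.1, 744 and 34.4 CPM. For COL11A1 all 4 libraries of this class lay above the class ranked next, neutrophil-like cells at 10.7, and COL11A2 was likewise apart from the B cell-like class ranked next at 4.39. For COL2A1, COL9A2 and COL9A3 the libraries overlapped with the class ranked next, neutrophil-like cells. In COL9A1 and COL10A1 neutrophil-like cells, at 2.03 and 0.202, came second. From there down, the ranges of neighbouring classes overlapped for every gene except COL11A2, where B cell-like cells also lay above the endothelial-like class at 2.03 CPM. The lowest class, mast cell, basophil or eosinophil-like cells, had 0 COL11A2 UMIs in every library, which allows up to 13.2 to 58.1 CPM.

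COL2A1, the main fibril gene of cartilage, had the most UMIs of the 7 in chondrocyte-like cells. It stood at 46785 and 38957 CPM with peptide 1797, against 29832 and 47319 with control peptide. The groups overlapped, and the control values rest on 2 and 5 cells. The class held 36658 of 38440 and 19229 of 20231 COL2A1 UMIs from peptide 1797 libraries, or 95.4% and 95.1% (exact binomial 95% intervals 95.1% to 95.6% and 94.7% to 95.3%). In the control libraries it held 666 of 827 and 8518 of 9146, or 80.5% and 93.1% (77.7% to 83.2% and 92.6% to 93.6%). These intervals cover counting error only.

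The type IX genes, whose products coat the fibril surface, were also highest in this class. COL9A1 was at 4855 and 4133 CPM in chondrocyte-like cells from peptide 1797 libraries, against 2508 and 3799.8 in those from control peptide libraries. COL9A2 was at 3479 and 2799.9 against 2105 and 2072, and COL9A3 at 3428 and 3655 against 1837 and 3089. The groups did not overlap in any of the 3 genes, and the control cells were too few for a test. How many of all genes were apart in this class was not counted. The class held 96.7% and 95.4% of COL9A1 UMIs with peptide 1797, against 64.4% and 92.7% with control peptide. For COL9A2 these shares were 96.2% and 95.9% against 70.1% and 82.9%. For COL9A3 they were 94.5% and 95.7% against 32.0% and 89.7%, and in control library 1 the stromal or osteoblast-like class held 68 of the 128 COL9A3 UMIs (53.1%, interval 44.1% to 62.0%).

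Among the type XI genes, COL11A1 was at 13909 and 14382 CPM in chondrocyte-like cells from peptide 1797 libraries, against 13796 and 11999 in those from control peptide libraries. COL11A2 was at 2889 and 1902 against 1613 and 2578. The groups overlapped for COL11A2 and not for COL11A1, whose lowest value with peptide 1797 and highest with control peptide were 13909 and 13796. That control value rests on 308 UMIs in 2 cells, 307 of them in 1 cell, so a gap this small is not resolved. Again the share of all genes apart in this class was not counted. Here the class held unequal parts of the libraries' transcripts. It held 67.7% and 87.1% of COL11A1 UMIs with peptide 1797 (67.0% to 68.5% and 86.4% to 87.8%), against 13.0% and 18.2% with control peptide (11.7% to 14.4% and 17.5% to 18.9%).

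The 58 cells were not alike in depth. Of the cluster, 15 cells had 503 to 1292 UMIs, 14 of them in 1797 library 1 and 1 in 1797 library 2, and these 15 carried 149 UMIs of the 7 genes in all. The other 43 had at least 2000 UMIs (median 26900.0) and numbered 23 and 13 with peptide 1797 against 2 and 5 with control peptide. In these 43 cells the 7 genes together took a median of 4.78% of all UMIs, from 0.71% to 18.9%. COL2A1, COL9A3, COL11A1 and COL11A2 had a UMI in all 43, COL9A1 and COL9A2 in 41 each, and 39 cells carried all 6 genes other than COL10A1.

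**Figure D2:**
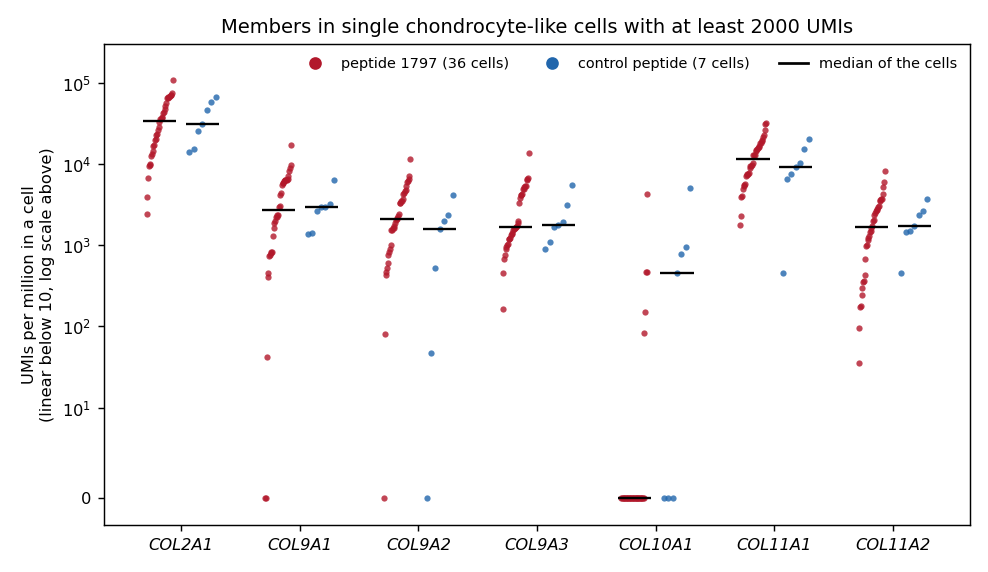
CPM of each gene in single chondrocyte-like cells with at least 2000 UMIs (linear below 10, log scale above), with 36 cells from peptide 1797 libraries left and 7 from control peptide libraries right for each gene and a line at the median of the cells. The ranges of the groups overlap for the genes of types II, IX and XI, with the highest COL2A1 cell at 107453 with peptide 1797 and at 66781 with control peptide, while COL10A1 was found in 9 of the 43 cells and reaches 4240 and 5117 in the highest cell of each group.

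Levels varied widely from cell to cell. COL2A1 ran from 2454 to 107453 CPM, with medians of 36314 and 20205 with peptide 1797 and of 23426 and 46534 with control peptide. Across the 43 cells, which share 4 libraries and differ in depth, Pearson's r of log2 levels with COL2A1 was 0.83 for COL11A2, 0.73 for COL9A3, 0.58 for COL9A1, 0.56 for COL9A2 and 0.52 for COL11A1. For COL10A1 it was 0.02. COL9A2 varied with COL11A1 (r = 0.74) more than with its partner chain COL9A1 (r = 0.30), as a description with no test.

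The proportions of the chains in the class sums can be given per 100 COL2A1 UMIs. COL11A2 gave 6.18 and 4.88 with peptide 1797 and 5.41 and 5.45 with control peptide. COL9A1 gave 10.4 and 10.6 against 8.41 and 8.03, and the 95% interval of control library 2 (7.42 to 8.68) was apart from those of both 1797 libraries (10.03 to 10.7 and 10.1 to 11.11). The interval of control library 1 (6.28 to 11.05) overlapped those of both 1797 libraries. COL11A1 gave 29.7 and 36.9 against 46.3 and 25.4, so the groups overlapped. These intervals count UMIs and take no account of the few cells behind them.

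COL10A1, the hypertrophy gene, was carried by few cells. Of the cells with at least 2000 UMIs it was found in 4 of 23 and 1 of 13 with peptide 1797 and in 1 of 2 and 3 of 5 with control peptide. In the chondrocyte-like class it was at 171 and 52.7 CPM with peptide 1797, against 44.8 and 1494 with control peptide, so that control library 2 was highest. The class held 134 of 143 and 26 of 31 COL10A1 UMIs from peptide 1797 libraries and 1 of 12 and 269 of 279 from control peptide libraries. Only 6 cells had 10 or more COL10A1 UMIs. They were 2 cells of 1797 library 1 with 113 and 11 UMIs, 1 cell of 1797 library 2 with 26, and 3 cells of control library 2 with 225, 24 and 20. A single cell held 113 of the 143 COL10A1 UMIs of 1797 library 1 and another 225 of the 279 of control library 2.

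These 6 cells were chosen by their COL10A1 counts, and their other genes are given as a description. All 6 carried IBSP and SPP1, genes of mineralised matrix, with medians of 10334 and 11227 CPM, and SPP1 was found at 858 or more in each. In the other 37 cells of at least 2000 UMIs, IBSP was found in 17 and SPP1 in 21, with medians of 0 and 19.1. COMP had a median of 168 in the 6 cells and 1575 in the 37. COL2A1 had a median of 31939 in the 6 cells and of 32808 in the 37. IHH, the signal made by prehypertrophic chondrocytes, was found in 3 of the 6 and in 8 of the 37. Outside the class, COL10A1 was near the limit of detection, with 9 and 5 UMIs in all other kept cells from peptide 1797 libraries and 11 and 10 in those from control peptide libraries. The stromal or osteoblast-like class had 2 and 0 COL10A1 UMIs with peptide 1797 and 0 and 0 with control peptide, and a count of 0 allows up to 2.24, 1.27 and 0.322 CPM in these 3 sums.

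COL11A1 was also found in most cells of the stromal or osteoblast-like class. The stromal or osteoblast-like class, named from COL1A1, COL1A2, IBSP, RUNX2 and other markers, held 335 and 44 cells from peptide 1797 libraries and 118 and 221 from control peptide libraries. In it COL11A1 was found in 63.6% and 65.9% of cells from peptide 1797 libraries and in 67.8% and 83.3% of those from control peptide libraries (exact binomial 95% intervals from 50.1% to 87.9% over the 4). In pooled blood cells, where free RNA can give a UMI, the shares were 3.88% and 1.77% against 1.99% and 3.92%. Median depths were 11276 to 41546 UMIs in the stromal class and 2118 to 5253 in blood cells. After thinning each cell to 1000 UMIs, which left out 33, 0, 1 and 9 stromal cells, the shares were 32.5% and 25.0% with peptide 1797 and 39.3% and 38.7% with control peptide, against 1.38%, 0.575%, 0.388% and 0.96% in blood cells.

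Summed counts of each class were compared with those of pooled blood cells of the same library (neutrophil, T, NK or cytotoxic T, B and erythroid-like cells) by edgeR with the library as a block. In the stromal or osteoblast-like class 5 of 6 tested members were higher, beside 34.7% of all genes tested there. COL11A1 had a log2 fold change of 6.78 ± 0.28 (SE, edgeR adjusted p = 6.25e-07), COL11A2 of 3.30 ± 0.55 (0.000792), COL9A3 of 3.23 ± 0.79 (0.00647), COL2A1 of 2.74 ± 0.47 (0.000966) and COL9A2 of 1.87 ± 0.59 (0.0206). COL9A1, at 0.59 ± 0.81, did not pass (edgeR adjusted p = 0.537). The COL9A2 call was lost without 1797 library 1 (edgeR adjusted p = 0.108) and without control library 2 (0.155), and with either other library left out it held.

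In the other 4 classes compared with blood cells (endothelial, osteoclast, macrophage and monocyte-like), no member was called higher than in blood cells. Endothelial-like cells had 0 of 6 tested members higher, beside 30.2% of all genes. The largest value there was COL11A1 at 0.56 ± 0.24 (edgeR adjusted p = 0.074), and with T cell-like cells as the background it passed at 0.91 (edgeR adjusted p = 0.0163). COL2A1, at -0.60 ± 0.31 (edgeR adjusted p = 0.123), passed as lower without control library 2 (-0.99, edgeR adjusted p = 0.038). Osteoclast-like cells had 5 of 5 tested members lower, beside 35.9% of genes, from -1.05 ± 0.27 for COL2A1 to -1.73 ± 0.59 for COL9A3. Macrophage-like cells had 2 of 5 lower, beside 31.1%, and monocyte-like cells 1 of 4, beside 33.8%. COL11A2 was among those lower in all 3 of these classes, at -1.48 ± 0.36, -1.66 ± 0.40 and -2.39 ± 0.47. These pooled blood cells include B cell-like cells, where COL11A2 averaged 4.39 CPM. Against blood cells without them, a setting chosen after seeing the data, the COL11A2 call was lost in osteoclast-like cells (-0.66, edgeR adjusted p = 0.168) and held in monocyte-like cells (-1.45, 0.028), and in macrophage-like cells the gene did not pass the filter on low counts. COL11A2 averaged 0.744 CPM in osteoclast-like and 0.634 in macrophage-like cells, against 0.541 in T cell-like cells. Osteoclast-like cells were also the deepest of these classes, with medians of 30953 to 42897 UMIs against 2118 to 5253 in blood cells, and the part of depth in the lower values was not tested. In osteoclast-like cells the call of COL2A1 was lost without 1797 library 1 (edgeR adjusted p = 0.051), without 1797 library 2 (0.0503) and against T cell-like cells (0.0593), that of COL9A1 without control library 1 (0.0544), and that of COL9A3 without 1797 library 1 (0.127) and without control library 1 (0.069). In macrophage-like cells COL2A1 was lost without 1797 library 2 (0.0784) and against T cell-like cells (0.0915).

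The stromal or osteoblast-like class was clustered again without the 7 genes, and its parts carried different members. COL11A1 was present in all 10 clusters, from 347 to 2384 CPM with the libraries pooled. Cluster 2, led by SFRP2, a secreted WNT modulator, and ASPN, a matrix protein that binds collagen, had 121 cells and 1475 CPM of COL11A1, found in 91.7% of cells. By library it stood there at 1130 and 902 with peptide 1797 (38 and 2 cells) and at 0 and 1579.5 with control peptide (1 and 80 cells). Cluster 3, led among others by CXCL12 and LEPR, genes of marrow stroma, had 713.

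COL11A2 followed another part of the class. Cluster 5 (62 cells) was led by BGLAP, the bone matrix protein osteocalcin of mature osteoblasts, and by IFITM5 and SMPD3, genes of mineralising osteoblasts, and had COL1A1 at 107336 CPM. COL11A2 was at 158 CPM there, found in 67.7% of cells, and at 179 in the shallower cluster 4 (66 cells, median 3824 UMIs), where BGLAP was at 906. In the other clusters it was at 10.2 or less. In cluster 5 it stood at 109 and 295 with peptide 1797 and at 172 and 149 with control peptide, so it was there in every library. COL9A3 was at 28.7 in cluster 5, with COL2A1 at 5.03 and COL9A1 and COL9A2 at 0. Control library 1 gave 29 of the 62 cells of cluster 5 and 31 of the 66 cells of cluster 4, and it also had the highest COL11A2 level of the whole class, at 90.8 CPM.

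**Figure D3:**
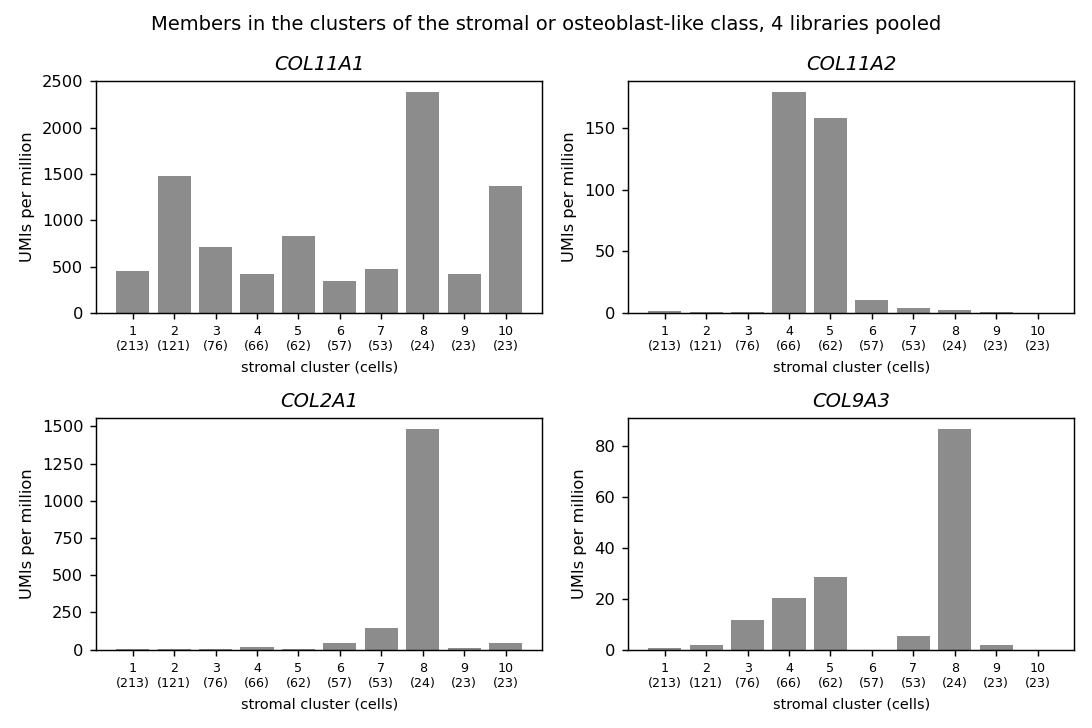
CPM of COL11A1, COL11A2, COL2A1 and COL9A3 in the 10 clusters of the stromal or osteoblast-like class, with the 4 libraries pooled and the number of cells in brackets. COL11A1 bars stand in every cluster, COL11A2 bars in clusters 4 and 5, and the COL2A1 bar of cluster 8 reaches 1484.

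A few stromal cells carried COL2A1 without COL9A1. Cluster 8 (24 cells: 17 and 3 from peptide 1797 libraries, 3 and 1 from control peptide libraries) was led by PTGES, an enzyme of prostaglandin synthesis, IGFBP5, a binding protein of insulin-like growth factors, and FRZB, a secreted WNT antagonist, with HAPLN1 among its top 12 genes. COL2A1 was at 1484 CPM and COL11A1 at 2384, while COL9A1 and COMP were at 0. In the whole class 10 cells had 10 or more COL2A1 UMIs (4 and 3 with peptide 1797, 2 and 1 with control peptide), with 10 to 245 UMIs each. Of these 10, which were chosen by that count, 8 lay in cluster 8 and 2 in cluster 7. All 10 had COL11A1, and 0 had COL9A1 or COMP. Together they held 930 COL2A1 UMIs against 6 of COL9A2, 35 of COL9A3 and 3378 of COL1A1. They also held 131 UMIs of ACAN, 96 of HAPLN1 and 40 of SOX9, the factor that drives the chondrocyte programme. Cluster 7 was led by PR39, S100A12 and other neutrophil genes and by PTPRC, a gene of all white blood cells, and the part of RNA from other cells in it was not tested.

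Blood cells carried traces of the collagens. COL2A1 was at 16.85 and 11.05 CPM in pooled blood cells from peptide 1797 libraries, against 1.23 and 5.42 in those from control peptide libraries. Over all kept cells the order of the 4 libraries was the same, at 463 and 216 against 9.32 and 97.7. For COL11A1 blood cells had 8.81 and 4.04 with peptide 1797 against 3.46 and 7.33 with control peptide, again in the order of all cells (194 and 87.0 against 26.7 and 127). The blood level was 3.64% and 5.12% of the all-cell level of COL2A1 with peptide 1797 and 13.2% and 5.55% with control peptide. For COL11A1 it was 4.55% and 4.65% against 13.0% and 5.78%. Not every member kept the order. COL9A1 in blood cells was at 2.09 and 1.19 CPM with peptide 1797 and at 0.355 and 0.277 with control peptide, where all cells had 0.981 and 7.89. COL10A1 and COL11A2 were highest in blood cells of control library 1 (0.166 and 2.15 CPM), where their level over all cells was lowest (0.135 and 4.21). The COL10A1 value there rests on 7 UMIs. With B cell-like cells left out, COL11A2 in blood cells was at 1.22 and 0.943 with peptide 1797 and at 0.747 and 0.792 with control peptide. These values rest on 22 or 23 UMIs each. Their 95% Poisson intervals all overlapped (0.764 to 1.85 and 0.598 to 1.41 against 0.474 to 1.12 and 0.502 to 1.19), so their order cannot be told.

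The chains in blood cells can be set against COL2A1 as well. For each 100 COL2A1 UMIs, blood cells from peptide 1797 libraries held 52.3 and 36.6 of COL11A1 and those from control peptide libraries 281 and 135. In all cells the figures were 41.9 and 40.3 against 286 and 129.6. In chondrocyte-like cells they were 29.7 and 36.9 against 46.3 and 25.4. In control library 1, whose blood cells had 52 COL2A1 UMIs, other chains stood higher per 100 COL2A1 UMIs in blood cells than in all cells. COL9A1 was at 28.9 (95% interval 15.1 to 52.0) against 10.5 (8.34 to 13.1), COL9A2 at 19.2 (8.71 to 38.2) against 8.10 (6.22 to 10.4), and COL11A2 at 175 (123 to 251) against 45.1 (39.8 to 51.0). The intervals were apart for COL9A1 and COL11A2 and overlapped for COL9A2. B cell-like cells held 68 of the 91 COL11A2 UMIs in blood cells of control library 1. Of the blood cells, 4 had 10 or more COL2A1 UMIs, and all 4 came from 1797 library 1.

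COL11A2 was higher in B cell-like cells than in other blood cells. It was at 3.14 and 3.28 CPM in B cell-like cells from peptide 1797 libraries and at 5.94 and 5.21 in those from control peptide libraries. The other pooled blood cells had 1.22 and 0.943 with peptide 1797 and 0.747 and 0.792 with control peptide. B cell-like cells were higher in 4 of 4 libraries, with a log2 fold change of 2.13 ± 0.31 (SE, edgeR with the library as a block, adjusted p = 0.00129), beside 27.5% of all genes higher in that comparison. COL2A1 and COL11A1 were lower in B cell-like cells than in the other blood cells, at -0.70 ± 0.18 and -0.71 ± 0.20 (edgeR adjusted p = 0.0145 and 0.0198). The other blood cells include shallower neutrophil-like cells (median depths 1519 to 2192 UMIs against 8261 to 9850), which averaged 15.2 and 10.7 CPM of these genes. B cell-like cells averaged 6.15 and 4.18, near T cell-like cells at 6.92 and 4.81. The part of depth was not tested. The comparison with the other blood cells was chosen after the levels by class had been seen.

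COL11A2 lies in the major histocompatibility region, 1124 bases from RXRB, a nuclear receptor gene, and 21830 bases from SLA-DOA, a class II gene of antigen-presenting cells. SLC39A7 lies 7981 bases away, and LOC106504375, a lncRNA gene 385 bases away, was not among the genes counted. The counted neighbours were also higher in B cell-like than in other blood cells. Log2 fold changes were 1.20 ± 0.16 for RXRB, 0.68 ± 0.13 for SLC39A7 and 4.48 ± 0.39 for SLA-DOA (edgeR adjusted p = 0.000876, 0.00426 and 0.000118). RXRB was at 11.2 and 9.38 CPM in B cell-like cells from peptide 1797 libraries and at 13.5 and 12.2 in those from control peptide libraries. In chondrocyte-like cells the libraries together held 3703 UMIs of COL11A2 against 11 of RXRB, 125 of SLC39A7 and 2 of SLA-DOA. Whether reads of a neighbour were counted as COL11A2 was not tested.

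**Figure D4:**
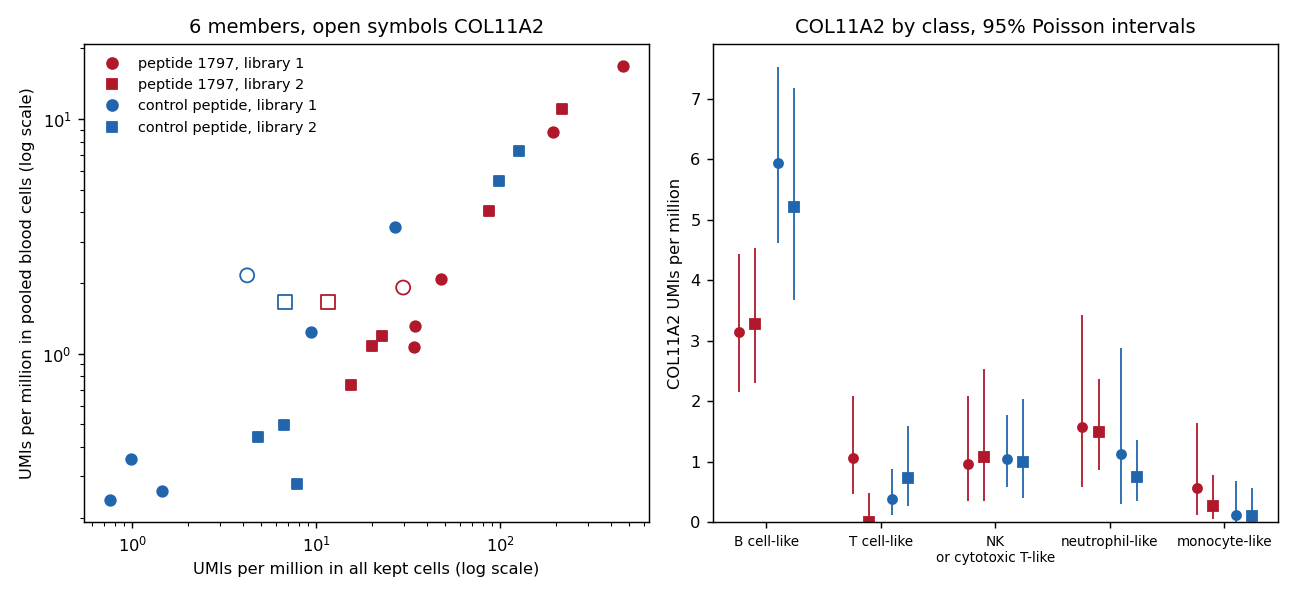
Left, CPM in pooled blood cells against all kept cells for 6 members in each library (log scales, COL10A1 left out, COL11A2 as open symbols). Right, COL11A2 in classes of white blood cells by library, with exact Poisson 95% intervals: B cell-like cells lie at 3.14 to 5.94, and the T, NK or cytotoxic T, neutrophil and monocyte-like cells drawn beside them at 1.58 or less.

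The question of the study is how the 1797 peptide changed the regenerated bone, and in the sum of all kept cells 5 of the 7 cartilage collagens were higher in both 1797 libraries than in both control libraries. Of all genes tested 12.6% stood so. In these sums more cells of a type and more RNA per cell cannot be told apart. COL2A1 averaged 339 ± 175 CPM with peptide 1797 and 53.5 ± 62.5 with control peptide (SD, n = 2 each). COL9A1 had 47.4 and 22.8 with peptide 1797 against 0.981 and 7.89 with control peptide. COL9A2 had 34.1 and 15.4 against 0.755 and 4.81, and COL9A3 had 34.2 and 20.1 against 1.44 and 6.63. COL11A2 had 29.6 and 11.5 against 4.21 and 6.79. In all 5, control library 1 was lowest and 1797 library 1 highest.

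**Figure D5:**
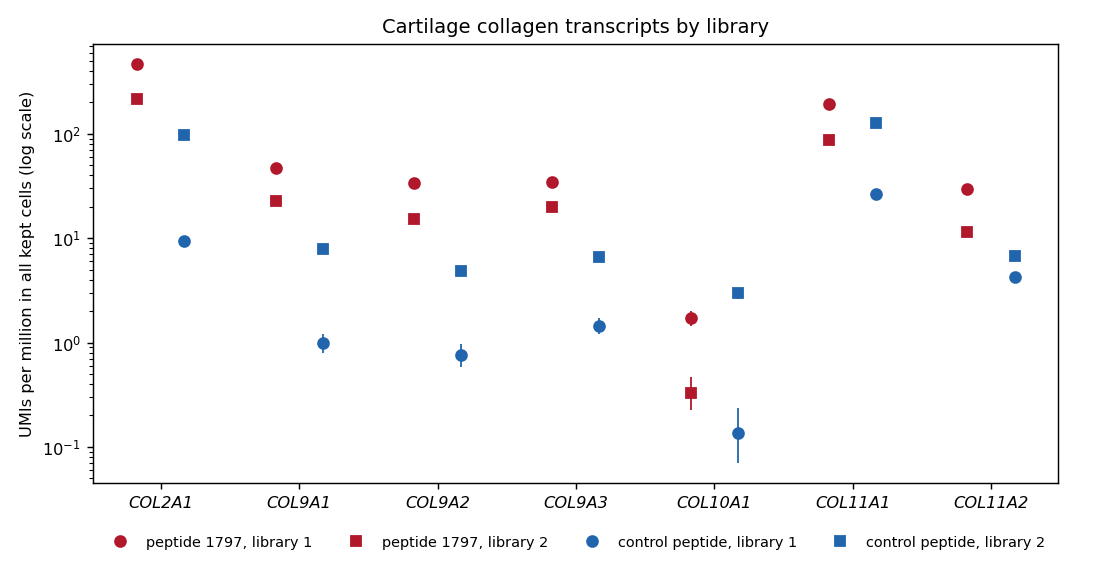
CPM over all kept cells for each gene (log scale), with the 1797 libraries left of those with control peptide and exact Poisson 95% intervals, which are mostly smaller than the symbols. The groups are apart for COL2A1, the type IX genes and COL11A2, and they overlap for COL10A1 and COL11A1.

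The groups overlapped for the other 2 members. COL11A1 had 194 and 87.0 CPM with peptide 1797, against 26.7 and 127 with control peptide. COL10A1 had 1.72 and 0.331 against 0.135 and 2.98.

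No member passed the test over all genes in these sums. Log2 fold changes were 2.64 ± 1.16 (SE) for COL2A1, 2.96 ± 1.06 for COL9A1, 3.12 ± 0.99 for COL9A2, 2.73 ± 0.80 for COL9A3 and 1.86 ± 0.52 for COL11A2. For COL11A1 it was 0.84 ± 0.81 and for COL10A1 -0.65 ± 1.49. Each had an edgeR adjusted p of 1, and 4 of the 7 (COL9A1, COL9A2, COL9A3 and COL11A2) had an unadjusted p under 0.05, from 0.02 to 0.0445. Of the 16654 genes tested, edgeR called 0 (0%), and 264 (1.59%) had an unadjusted p under 0.05, while DESeq2 called 18 of 18990 (0.0948%), none of them a member. The median log2 fold change was 2.64 over the 7 genes and -0.02 over all genes. Exact permutation of 2 against 2 libraries cannot give a p below 0.333 and was not used.

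The chondrocyte-like class was also larger in both 1797 libraries. It made up 0.303% and 0.11% of cells with peptide 1797, against 0.016% and 0.044% with control peptide (exact binomial 95% intervals 0.213% to 0.417%, 0.06% to 0.185%, 0.002% to 0.057% and 0.014% to 0.102%). The log2 ratio of the shares was 2.77 ± 1.75 (SE), which did not pass (edgeR on cell numbers, adjusted p = 0.958 over the classes). Leaving out a library gave 1.88 (without 1797 library 1) to 3.64 (without control library 2). With only the cells of at least 2000 UMIs counted, the ratio was 2.27.

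With the 58 cells left out of the sums, 2 of 6 tested members were above in both 1797 libraries, beside 12.6% of all genes, and edgeR called 0 genes (0%), 244 (1.47%) had an unadjusted p under 0.05, and DESeq2 called 12. COL2A1 remained apart, at 21.7 and 10.7 CPM with peptide 1797 against 1.82 and 6.72 with control peptide (log2 fold change 1.90 ± 0.72, edgeR adjusted p = 1). COL9A1 was at 1.59 and 1.06 against 0.35 and 0.578. COL11A2 was at 2.37 and 1.51 against 3.80 and 1.83, with a log2 fold change of -0.57 ± 0.49 in place of 1.86. COL11A1 was at 63.1 and 11.3 against 23.2 and 104.

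In pooled blood cells 4 of 6 tested members (COL2A1 and the type IX genes) lay above in both 1797 libraries, beside 10.5% of all genes. Their log2 fold changes were 2.07 ± 0.77 for COL2A1, 2.40 ± 0.43 for COL9A1, 1.43 ± 0.51 for COL9A2 and 1.69 ± 0.48 for COL9A3, with an edgeR adjusted p of 0.999 each. COL11A2 was level there, at 1.91 and 1.67 CPM with peptide 1797 against 2.15 and 1.66 with control peptide (-0.04 ± 0.29). That sum includes B cell-like cells, where COL11A2 was higher. In blood cells without them it was at 1.22 and 0.943 with peptide 1797 against 0.747 and 0.792 with control peptide. These values come from 22 or 23 UMIs a library, and the difference was not tested. In the pooled blood cells edgeR called 0 of 14941 genes (0%), 432 (2.89%) had an unadjusted p under 0.05, and DESeq2 called 17.

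Within the stromal or osteoblast-like class, 1 of 5 tested members, COL2A1, lay above in both 1797 libraries, beside 14.1% of all genes. It was at 107 and 144 CPM with peptide 1797, against 28.3 and 13.5 with control peptide. The log2 fold change was 2.62 ± 0.43 with an edgeR adjusted p of 1 and an unadjusted p of 0.000602, and DESeq2 called it (adjusted p = 0.000129). In the class edgeR called 0 genes (0%), 311 (2.48%) had an unadjusted p under 0.05, and DESeq2 called 3 (0.0171%). EdgeR also called COL2A1 with no filter on low counts (adjusted p = 0.00176, 3 genes called in all). It was called too without control library 1 (edgeR adjusted p = 7.13e-05) and without control library 2 (0.043), where 68 and 65 genes were called, but these fits leave 1 control library, which is assumed to vary like the 1797 libraries. The 5 cells with most COL2A1 held 92.0% and 96.4% of its UMIs with peptide 1797, against all of them in control library 1 and 60.3% in control library 2.

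COL11A1 in that class was at 720 and 535 CPM with peptide 1797 and at 745 and 975 with control peptide, with a log2 fold change of -0.46 ± 0.29 (edgeR adjusted p = 1), so that both 1797 libraries were lower. Of the 12562 genes tested in the class, 1957 lay below in both 1797 libraries. COL11A2 was at 11.9 and 27.7 against 90.8 and 7.09. Its log2 fold change of -1.35 ± 1.08 (edgeR adjusted p = 1) rested on control library 1, without which it was 1.39, and without control library 2 it was -2.32 (edgeR adjusted p = 0.0493, again with 1 control library assumed to vary like the others). In endothelial, osteoclast, macrophage and monocyte-like cells 1 of 2 tested members, COL2A1, lay above in both 1797 libraries, beside 13.7%, 14.7%, 16% and 15.5% of all genes. It had log2 fold changes of 0.70 ± 0.67, 1.41 ± 1.00, 2.41 ± 0.71 and 1.77 ± 0.83 and edgeR adjusted p of 1, 0.961, 0.383 and 0.723. The macrophage value passed with no filter on low counts (edgeR adjusted p = 0.024) and the monocyte value without control library 2 (4.51, edgeR adjusted p = 0.0121), with the same assumption on the single control library.

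Other genes of cartilage and of collagen assembly were read in the sum of all cells, in 5 lists. None of their members passed edgeR over all genes. Of all 16654 genes tested 7920 were higher with peptide 1797, and 12.6% lay above in both 1797 libraries, with a median log2 fold change of -0.02. Of the non-collagen cartilage matrix, 16 of 16 tested members were higher and 11 lay above in both 1797 libraries, with a median log2 fold change of 1.64. This list holds all marker genes of the chondrocyte-like class except SOX9, so it is not separate from the size of that class. COMP was at 23.0 and 15.7 CPM with peptide 1797 against 0.46 and 2.63 with control peptide. CYTL1, a cytokine-like gene of cartilage, was at 1.40 and 1.07 against 0.05 and 0.01, and UCMA, a matrix protein of the growth plate, at 0.84 and 1.00 against 0.09 and 0.03. MIA, a protein secreted by chondrocytes, was at 5.96 and 4.03 against 1.39 and 2.47.

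The cartilage regulators were mixed, with 11 of 15 higher, 2 above in both 1797 libraries, a share near that of all genes, and a median of 0.12. IHH was at 0.34 and 0.32 CPM with peptide 1797 against 0.08 and 0.11 with control peptide. SOX5, a partner of SOX9, was at 511 and 343 against 319 and 319.6, while RUNX2, a factor of hypertrophy and bone formation, was at 637 and 402 against 701 and 694. Collagen processing genes, the enzymes and chaperones that modify and export any collagen, had 10 of 27 higher, 1 above in both and a median of -0.10. Among the other fibrillar collagens 2 of 8 were higher and 0 lay above in both, with a median of -0.34. COL1A1, the chain of bone collagen, was at 2161 and 397 against 1874 and 2809, so 1797 library 2 was lowest. Collagen-degrading enzymes had 7 of 9 higher, 1 above in both and a median of 0.32. MMP1, an enzyme that cuts fibrillar collagen, was at 1.38 and 0.75 against 0.30 and 0.62. CTSK, the cathepsin with which osteoclasts cut collagen, was at 270.4 and 202 against 72.8 and 256.

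The genes whose mean levels over the 14 classes were most like those of 3 members were sought among genes with at least 50 UMIs, by Pearson's r on log2(CPM + 1), with no test. The classes share libraries, and the chondrocyte-like class is the highest point for each of the 3 members. For COL2A1 they were TOX3, MAL, NRK, CILP2 and KHDRBS2 (r from 0.988 to 0.992). For COL10A1 they were CYTL1, CLEC3A, IHH, LOC100739663 and RSPO4 (0.998 to 0.999). COL10A1 averaged 0.202 CPM or less in every class but the chondrocyte-like one, so any gene confined to that class gives a high r. Within that class CYTL1 had 108 and 90 UMIs with peptide 1797 and 0 and 0 with control peptide. COL10A1 had 134 and 26 against 1 and 269. For COL11A1 they were C1QTNF3, CYP24A1, CHAD, FIBIN and SMOC2 (0.978 to 0.993). Of the genes found with COL11A1, SMOC2 was at 76.5 CPM in the stromal or osteoblast-like class and CHAD at 44.1. Those found with COL10A1 had 0.2 CPM or less there.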

How the data were processed

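The deposited matrices hold raw UMI counts per gene and barcode, made by the authors with Cell Ranger 5.0.0 on Sscrofa11.1 per the submitters' processing notes, and the file headers name version 7.0.1. The lists of gene names and barcodes hold no measurement. Kept barcodes had 200 or more genes and less than 20% of their counts from 13 mitochondrial genes, and 1798 doublets called by Scrublet (scanpy 1.11.5, expected rate 0.1) were removed.

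Cells were clustered (2000 variable genes, 30 components, 15 neighbours, Leiden resolution 1.0, libraries not integrated) without the 7 members. A cluster was named where its best marker list scored at least 0.8, at least 3 of its markers had 10 or more UMIs and the list led among the top 50 genes. Clusters with a median depth under 0.333 of their libraries' medians stayed unnamed (12 clusters, with 23.5% and 11.04% of cells from peptide 1797 and 17.4% and 15.9% from control peptide).

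For each library the counts of a class were added up, where every library had 20 cells or more, and tested with edgeR 4.0.16 (quasi-likelihood, TMM, filter on low counts) without a block, with Benjamini-Hochberg adjustment over all genes of a fit at a threshold of 0.05. DESeq2 1.42.0 was the second tool. The edgeR fits were also run on simulated data with a fixed spread, not the spread of these libraries. That run does not measure how well the fits find changes here. Intervals are exact at 95% and cover counting error only. A count of 0 allows up to 3 counts. Named genes were the 7 members, up to 4 of each list by smallest edgeR p over all cells, and the 5 most like COL2A1, COL10A1 and COL11A1. Genes that lead clusters, marker genes, the neighbours of COL11A2 and the genes set beside COL10A1 were added after their values were seen. The members and lists were chosen with earlier results of these data known.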

Additional observations from a re-analysis of the deposited data

Results flagged for a closer look

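In 3 members the groups were apart in opposite directions in different classes, among the 14 classes and pooled blood cells where the gene had at least 20 UMIs, and the difference between classes was not tested. How many of all genes stood so was not counted. In the stromal or osteoblast-like class alone, 1777 of 12562 genes tested lay above in both 1797 libraries and 1957 lay below. COL9A1 was lower in the 1797 libraries in stromal or osteoblast-like cells (log2 ratio of means -1.43, at 0.692 and 1.87 CPM, from 28 UMIs in all) and higher in pooled blood cells and in chondrocyte, neutrophil, NK or cytotoxic T and B cell-like cells. COL11A1 was lower in the 1797 libraries in stromal or osteoblast-like cells (log2 ratio of means -0.46, at 628 and 860 CPM) and in pericyte or smooth muscle-like cells (-1.69, at 1.87 and 6.04 CPM, from 34 UMIs in all). It was higher in chondrocyte-like cells, where the control libraries had 2 and 5 cells and the gap between the groups was too small to be resolved. COL11A2 was lower in the 1797 libraries in endothelial-like cells (log2 ratio of means -0.43, at 1.73 and 2.33 CPM, from 32 UMIs in all) and in B cell-like cells (-0.80, at 3.21 and 5.57 CPM, from 173 UMIs) and higher in neutrophil-like cells (1.53 and 0.93 CPM, from 37 UMIs).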

How the results depend on the processing

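Across 88 results, 514 of 590 alternatives were labelled the same as the main setting. For fold changes and the share of cells, that label means the same direction and side of the threshold. For numbers of genes or members called it means a similar number. For levels by class it means a mean within the SD of the libraries. With 2 libraries a group, and 2 and 5 chondrocyte-like cells with control peptide, few differences can be resolved, and blood-cell levels of the type IX genes rest on few UMIs. The cause of each change below was not tested.

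Against main edgeR counts of 0 genes called between peptide 1797 and control peptide, DESeq2 called 18 in the sum of all cells, 17 in blood cells, 12 without chondrocyte-like cells, 3 in stromal, 19 in endothelial, 10 in osteoclast, 103 in macrophage and 54 in monocyte-like cells. With no filter on low counts edgeR called 3 in stromal, 195 in endothelial, 225 in macrophage and 29 in monocyte-like cells. Leaving out 1 library in turn gave 0 to 68 calls in stromal, 0 to 58 in endothelial, 0 to 10 in macrophage and 0 to 55 in monocyte-like cells, where the group left with 1 library is assumed to vary like the other.

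With the replicate block, 2 genes were called in monocyte-like cells and 0 in the other sums, and the log2 fold change turned to 0.13 for COL10A1 in all cells and 0.09 for COL9A3 in stromal cells. Same-numbered libraries did not deviate together from their group means (r = -0.31), so the numbers were not taken as pairs. With 2 libraries a group the deviations mirror each other, so both numbers give this same r. With the crossed replicate block, chosen after seeing the data, 1 gene was called in endothelial-like cells and 0 in the other sums, and these values were 0.05 and 0.52.

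Leaving out 1 library in turn reversed some uncalled log2 fold changes of peptide 1797 over control peptide. COL10A1 in all cells ran from -2.17 to 2.87. In blood cells COL11A1 ran from -0.34 to 0.96 and COL11A2 from -0.18 to 0.09. Without chondrocyte-like cells COL11A1 ran from -2.43 to 0.65 and COL11A2 from -0.97 to 0.07. In stromal cells COL9A2 ran from -0.87 to 6.50, COL9A3 from -1.66 to 2.70 and COL11A2 from -2.32 to 1.39. COL11A1 ran from -0.41 to 0.55 in endothelial, -0.99 to 0.90 in osteoclast and -0.55 to 0.88 in monocyte-like cells.

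Against blood cells, the same step moved COL9A1 from -0.50 to 1.57 in stromal and from -0.80 to 0.74 in endothelial cells, COL11A2 from -0.27 to 0.15 in endothelial, COL9A3 from -1.63 to 0.13 in macrophage and COL2A1 from -0.21 to 0.01 in monocyte-like cells. With T cell-like cells alone as background, 1 member was called higher in endothelial cells, COL11A2 there was 1.56, and COL2A1 and COL11A1 in monocyte-like cells were 0.18 and 0.20. With B cell-like cells left out of the background, chosen after seeing the data, COL11A2 in endothelial cells was 0.84.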
